A study of Sus scrofa with 24 samples.

Results

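The proteasome genes of pig back muscle were compared between animals with much and with little fat inside the muscle. The genes are the 30 symbols of the deposited table that begin with PSMA, PSMB, PSMC, PSMD, PSME, PSMF or PSMG, the prefixes of proteasome subunits, activators, inhibitors and assembly factors. They are 30 of 12017 genes in the table, 9506 of which have a symbol, and they comprise 62 of its 22154 assembled transcripts. Levels are FPKM (fragments per kilobase of transcript, scaled to the mapped fragments of the library), summed over the transcripts of a symbol. The prefix rule itself uses no measured value, but the members were chosen with earlier results of these data known.

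The proteasome is the protease complex that degrades proteins tagged with ubiquitin. Its barrel-shaped core is built of alpha subunits, which form the outer rings and the gate, and beta subunits, which form the inner rings and include the catalytic sites. A regulatory particle sits on the end of the core: its base unfolds and translocates the substrate with a ring of ATPases, and its lid removes the ubiquitin chain. In skeletal muscle the ubiquitin-proteasome system breaks down myofibrillar protein and is known for its part in muscle wasting.

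The samples were longissimus dorsi, the long back muscle, taken 25 minutes after death at the junction of the thoracic and lumbar spine. The 24 animals were F1 pigs, picked from 265 offspring of 112 Luchuan sows and 8 Duroc boars, raised on 1 diet and farm and slaughtered at 1 abattoir and an age of 210 ± 6 days. The labels put 12 in a high and 12 in a low intramuscular fat (IMF) group, and each library is 1 animal. Each library was made from polyA RNA of whole muscle, so fewer cells of a type and less RNA per cell cannot be told apart. Animals are numbered here within a group by the order of their records. The first 4 digits of the animal identifiers take 2 values and divide each group into 6 and 6, called set A (the lower digits) and set B here. In 3 pairs the first 9 digits are shared: high IMF animals 4 and 8, low IMF animals 2 and 8, and low IMF animals 6 and 7. All 3 pairs lie in set A. What the digits mean is not stated in the labels.

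The libraries held 351119 to 415572 FPKM in sum, and the depth inferred from the smallest steps of the values was 32.9 to 40.8 M reads (M for mega). The 10 most abundant genes took 18.5% to 33.0% of a library's FPKM. Low IMF animal 10 and high IMF animal 7 had the smallest such shares, at 18.5% and 20.2%. The muscle markers fixed as a list (8 of 8 listed) summed to 45583 ± 8939 FPKM in high and 51756 ± 9134 in low IMF (SD, n = 12 each). Of these 8, 2 had a log2 difference above 0 and 2 were lower in high IMF at an unadjusted p under 0.05 (0.893% of all genes), MYLPF, a fast myosin light chain, at a log2 difference of -0.46 (p = 0.012, adjusted p = 0.521) and TTN, titin, at -0.96 (p = 0.011, adjusted p = 0.518). The 2 above 0 were CKM, at 8297 ± 3142 against 7145 ± 3913 FPKM (log2 difference 0.33), and TNNT3, at 2986 ± 1149 against 2343 ± 798 (0.32). DES and TNNC2 were at -0.04 and -0.15. The part of the 8 muscle markers in the levels of the proteasome genes was not tested. ACTA1, the skeletal actin, stood at 21138 ± 7005 against 27725 ± 7213 FPKM, so the tissue label is borne out by its markers, although MB (myoglobin) was listed below 1 FPKM on average in both groups.

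Of 50 proteasome symbols in the fixed role lists, 30 were listed by symbol and 20 were not. Those listed are 3 of 8 alpha subunits, 6 of 7 constitutive beta subunits, 2 of 4 specialised beta subunits, 5 of 6 ATPases, 2 of 3 other base subunits and 6 of 8 lid subunits. The rest are 2 of 3 chaperones of the regulatory particle, 3 of 5 activators and inhibitors, and 1 of 4 chaperones of the core. All 30 passed the minimum mean of 0.5 FPKM, and none was listed at 0 as a sum in any animal. The genes are spread over 12 chromosomes, with 6 on chromosome 12 and 5 on chromosome 7. PSMB8 and PSMB9, neighbours in the major histocompatibility region, lie 10178 bases apart on chromosome 7 (Sscrofa11.1).

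PSMD3, a lid subunit, had the highest mean over all animals at 101 FPKM, followed by the ATPase PSMC5 at 90.6, the alpha subunit PSMA7 at 89.6 and the ATPase PSMC3 at 84.9 FPKM. At the other end stood PSMD10 at 1.46, PSMB9 at 2.83 and PSMB8 at 5.17 FPKM. In all, 8 genes averaged at least 50 FPKM, 16 lay between 10 and 50, and 6 were below 10. The 4 lowest were the assembly chaperones PSMD10 and PSMD5 and the interferon-inducible subunits PSMB9 and PSMB8.

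No proteasome gene passed the test between high and low IMF: 0 of 30 had an adjusted p under 0.05 (limma on log2(FPKM + 1), Benjamini-Hochberg adjustment over 11757 genes), and adjusted p ran from 0.518 to 0.968. Over all genes tested, 0.051% passed in either direction. The direction was nevertheless the same throughout: all 30 log2 differences (high minus low) were above 0, with a median of 0.20, against 73.4% of all genes and a median of 0.08. At an unadjusted p under 0.05, 8 of 30 were higher in high IMF (6.79% of all genes) and 0 of 30 lower (0.893% of all genes). After TMM scaling (trimmed mean of M values), which moved the median of all genes to 0.00, 24 of 30 differences were above 0 (49.7% of all genes), with a median of 0.09. Under TMM only PSMD2 had an unadjusted p under 0.05 (2.77% of all genes were higher at that level), and 0 of 30 passed the adjusted threshold (0.0512% of all genes in either direction). With upper-quartile scaling 1 of 30 had an unadjusted p under 0.05 (2.51% of all genes). The 6 genes whose difference was below 0 under TMM were PSMB1, PSMB9, PSMC5, PSMD10, PSME1 and PSMF1.

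The count of 8 depended on single animals. It was 3 without high IMF animal 3 (5.43% of all genes) and 15 without low IMF animal 10 (14.1% of all genes). It was 4 without high IMF animal 7, high IMF animal 8, low IMF animal 4 or low IMF animal 9, where 5.26%, 5.7%, 6.11% and 5.68% of all genes were at that level. It was 5 without high IMF animal 11 or without low IMF animal 1, 3, 8 or 12, where 5.94%, 5.34%, 5.43%, 6.22% and 6.17% of all genes were. With 1 animal per shared 9 identifier digits (21 animals) it was 3 (6.05% of all genes). The high and low groups overlapped for all 30 genes. For 13 genes at least 10 of 12 high animals lay above the low group's median, and for PSMD2 all 12 did.

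**Figure D1:**
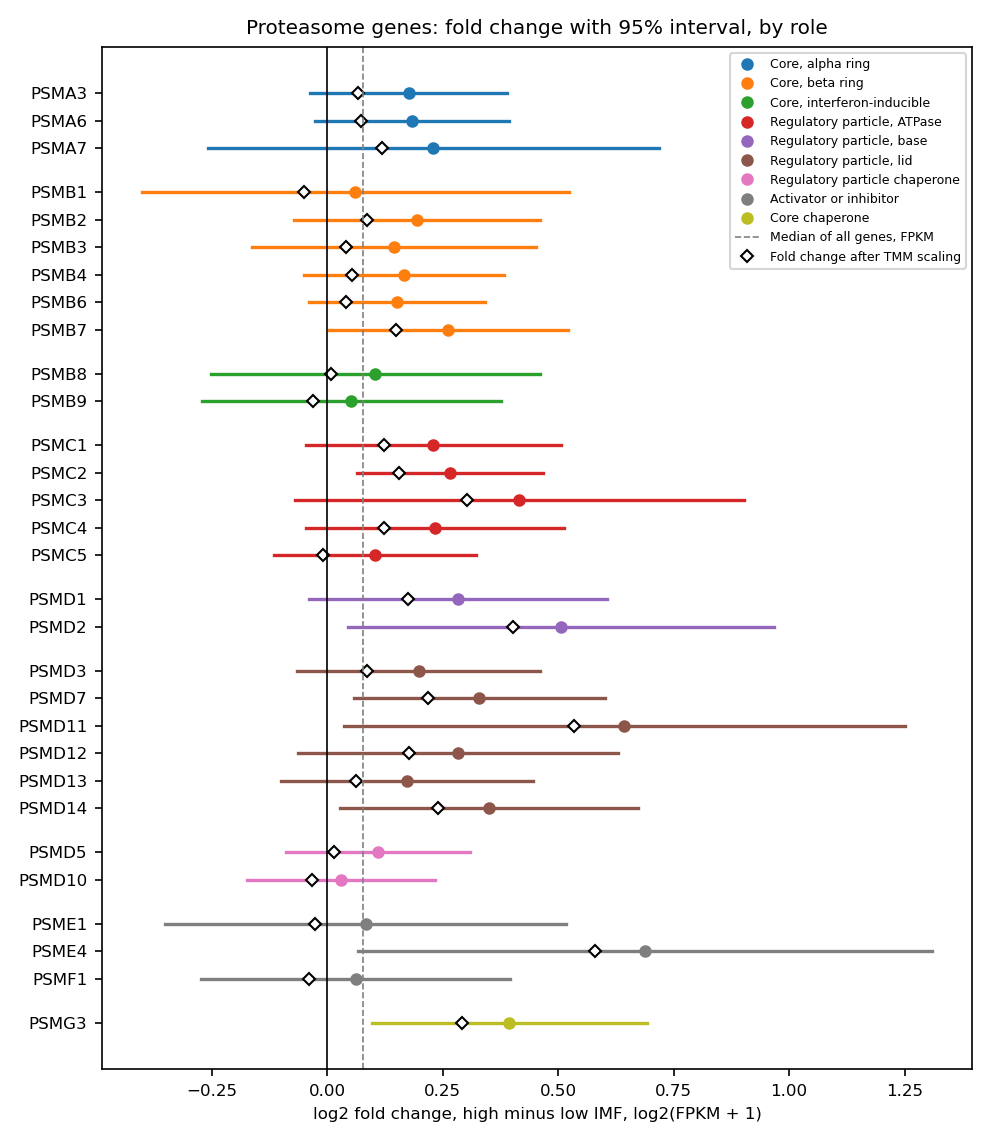
Log2 difference (high minus low IMF, on log2(FPKM + 1)) of the 30 proteasome genes, grouped and coloured by role, with its 95% interval from limma; open diamonds give the difference after TMM scaling and the dashed line the median of all genes. All 30 filled points lie right of 0, and 6 diamonds lie left of it.

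Among the alpha subunits, PSMA3 was at 37.3 ± 6.14 FPKM in high and 33.0 ± 6.41 in low IMF (SD, n = 12 each). PSMA6 was at 26.5 ± 4.75 against 23.2 ± 3.76 FPKM, a log2 difference of 0.18 (SE 0.10, adjusted p = 0.690). Its values ran from 18.9 through a median of 26.0 to 35.6 in high, and from 17.8 through 23.4 to 28.3 FPKM in low animals. PSMA7, with 3 transcripts, was more variable, at 94.9 ± 33.2 against 84.3 ± 38.1 FPKM. The 3 log2 differences were 0.18 to 0.23, and under TMM 0.07 to 0.12. The 3 alpha subunits listed by symbol thus lay close together, and none passed. Taken singly, the 3 PSMA7 transcripts had log2 differences of -0.21, -0.03 and 0.61.

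Of the 6 constitutive beta subunits, PSMB7, which carries the trypsin-like site, differed most. It lies on the minus strand of chromosome 1, from 265172237 to 265235480, and the table lists 1 transcript for it. Its level ran from 45.7 through a median of 74.9 to 102 FPKM in high and from 45.0 through 57.9 to 94.7 in low IMF animals. High animals thus sat mostly above low ones, 10 of 12 over the low median, but the ranges nearly coincided. The means were 71.7 ± 15.4 and 59.6 ± 13.9 FPKM, a log2 difference of 0.26 (SE 0.13, p = 0.047, adjusted p = 0.643), and 0.15 under TMM. PSMB6, the caspase-like catalytic subunit, was at 34.1 ± 4.77 against 30.6 ± 4.86 FPKM, a log2 difference of 0.15. It also varied least of all 30 genes within groups, with a coefficient of variation of 14.9%. PSMB2, PSMB3 and PSMB4, structural subunits of the inner ring, had log2 differences of 0.19, 0.15 and 0.17. PSMB1 had 0.06, and -0.05 under TMM, with the single value of 9.46 FPKM in high IMF animal 12 as its minimum. The median for the beta subunits was 0.16, and 0.05 under TMM.

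The interferon-inducible subunits replace catalytic beta subunits when the immunoproteasome is built, PSMB8 in place of PSMB5 and PSMB9 in place of PSMB6. PSMB8 was at 5.44 ± 2.28 FPKM in high and 4.90 ± 1.61 in low IMF. Its values ran from 2.90 through a median of 4.48 to 10.4 in high and from 2.70 through 5.06 to 7.35 FPKM in low animals, so the high median was the lower one although the mean was not. PSMB9 was at 2.94 ± 1.28 against 2.72 ± 0.896 FPKM, a log2 difference of 0.05, and -0.03 under TMM. High IMF animal 8 held the highest level of both genes, 10.4 FPKM of PSMB8 and 5.91 of PSMB9. PSMB9 made up 8.12 ± 3.96% of the sum of PSMB9 and PSMB6 in high and 8.22 ± 2.43% in low animals, a gap far below the spread between animals.

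The ATPases of the base form the ring that unfolds the substrate. PSMC2 had the smallest p among them. It lies on the plus strand of chromosome 9, from 103362433 to 103378926, and 1 reference transcript carried 86.0% to 97.4% of its level in every animal. Its level ran from 25.5 through a median of 32.8 to 41.2 FPKM in high and from 21.6 through 27.0 to 36.6 in low animals. The means were 32.5 ± 5.08 and 26.9 ± 4.63 FPKM, a log2 difference of 0.26 (SE 0.10, p = 0.012, adjusted p = 0.521), and 0.16 under TMM. The high animals lay above the low median in 10 of 12 cases, and 1 low animal, animal 10, lay above the high median. Without low IMF animal 10 its adjusted p was 0.146, the lowest that any of the 10 genes of smallest p reached under the settings tried.

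PSMC1, PSMC4 and PSMC5, the other ATPases with steady sums, had log2 differences of 0.23, 0.23 and 0.10. PSMC5 turned to -0.01 under TMM. PSMC3 had the largest difference of the ring, 0.42, at 92.7 ± 16.7 against 77.0 ± 34.8 FPKM, but with an adjusted p of 0.695. The low group was spread from 15.7 FPKM in animal 6 to 138 in animal 10.

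The base also holds PSMD1 and PSMD2, the large scaffolds that dock shuttle proteins and ubiquitin-like domains. PSMD2 lies on the plus strand of chromosome 13, from 122187460 to 122199464. Its level ran from 10.05 through a median of 20.3 to 30.7 FPKM in high and from 7.68 through 9.59 to 35.1 in low animals. In 7 of 12 low animals PSMD2 was below every high animal, while low IMF animals 6, 7, 10 and 11 reached 15.4 to 35.1 FPKM. The means were 18.9 ± 6.95 and 13.7 ± 8.06 FPKM, a log2 difference of 0.51 (SE 0.22, p = 0.033, adjusted p = 0.619). Under TMM it was 0.40 (p = 0.041, adjusted p = 0.956). PSMD1, on the plus strand of chromosome 15 from 131807598 to 131916131, was at 26.7 ± 5.25 against 22.8 ± 9.96 FPKM, a log2 difference of 0.28 (SE 0.16, p = 0.083, adjusted p = 0.685). Low IMF animal 10, at 51.2 FPKM, stood above every other animal for PSMD1, and 11 of 12 high animals lay above the low median.

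The lid gave 3 of the 8 genes with an unadjusted p under 0.05 (6.79% of all genes), PSMD7, PSMD14 and PSMD11. Under TMM 0 of the 6 lid genes were at that level (2.77% of all genes). PSMD14 is the deubiquitinase of the lid and PSMD7 its inactive partner. PSMD7, on the plus strand of chromosome 6 from 17046650 to 17057511, ran from 43.7 through a median of 62.8 to 84.1 FPKM in high and from 33.3 through 49.998 to 79.4 in low animals. Its means were 63.7 ± 11.2 and 51.5 ± 14.3 FPKM, a log2 difference of 0.33 (SE 0.13, p = 0.019, adjusted p = 0.560), and 0.22 under TMM. For PSMD7, 11 of 12 high animals lay above the low median. PSMD14, on the plus strand of chromosome 15 from 68107374 to 68208883, ran from 22.3 through 36.0 to 50.2 FPKM in high and from 19.6 through 25.2 to 54.5 in low animals. Its means were 35.4 ± 8.95 and 28.0 ± 9.92 FPKM, a log2 difference of 0.35 (SE 0.16, p = 0.035, adjusted p = 0.626), and 0.24 under TMM. The highest PSMD14 value of all was in low IMF animal 10.

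PSMD11, which clamps the lid to the core, had the largest difference of the lid. It lies on the minus strand of chromosome 12, from 42497890 to 42529880. Its level ran from 9.79 through a median of 54.3 to 90.1 FPKM in high and from 9.14 through 33.9 to 52.4 in low animals. No low animal reached the high median, while high IMF animal 10 was almost as low as the lowest low animal. The means were 54.2 ± 21.3 and 33.8 ± 14.1 FPKM, a log2 difference of 0.64 (SE 0.30, p = 0.039, adjusted p = 0.627). That difference rests on a transcript added by the assembly: with reference transcripts alone it was -0.09. PSMD3, PSMD12 and PSMD13, the remaining lid subunits in the table, had log2 differences of 0.20, 0.28 and 0.17, and all 6 lid genes stayed above 0 under TMM, with a median of 0.20.

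Assembly factors and activators were less uniform. PSMD5 and PSMD10, chaperones that hold ATPases during assembly of the base, were low and nearly level between groups, PSMD5 at 6.64 ± 0.994 against 6.14 ± 1.38 FPKM and PSMD10 at 1.48 ± 0.347 against 1.44 ± 0.411. PSME1, a subunit of the interferon-inducible activator cap, was at 11.9 ± 4.35 against 11.45 ± 5.09 FPKM, a log2 difference of 0.08, and -0.03 under TMM. PSMF1, named as an inhibitor of the core, was at 9.78 ± 2.74 against 9.46 ± 2.94 FPKM, a log2 difference of 0.06, and -0.04 under TMM. For PSMF1 and PSMB8, 4 of 12 high animals lay above the low median.

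PSME4, a large nuclear activator of the core, had the largest log2 difference of all 30 genes. It lies on the plus strand of chromosome 3, from 87231534 to 87337703. Its level ran from 3.23 through a median of 15.5 to 35.2 FPKM in high and from 2.61 through 9.14 to 17.6 in low animals. The means were 17.4 ± 8.96 and 10.2 ± 5.27 FPKM, a log2 difference of 0.69 (SE 0.30, p = 0.031, adjusted p = 0.617), and 0.58 under TMM. It was also the most variable gene within groups, with a coefficient of variation of 53.3%.

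PSMG3, a chaperone of alpha-ring assembly and the only PSMG gene listed by symbol, had the smallest p of the 30. It lies on the minus strand of chromosome 3, from 1052120 to 1054724. Its level ran from 7.73 through a median of 9.99 to 19.8 FPKM in high and from 5.69 through 8.12 to 12.03 in low animals. The means were 11.2 ± 3.73 and 8.13 ± 1.98 FPKM, a log2 difference of 0.39 (SE 0.14, p = 0.011, adjusted p = 0.518), and 0.29 under TMM. The sign turned with reference transcripts alone, to -0.27.

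**Figure D2:**
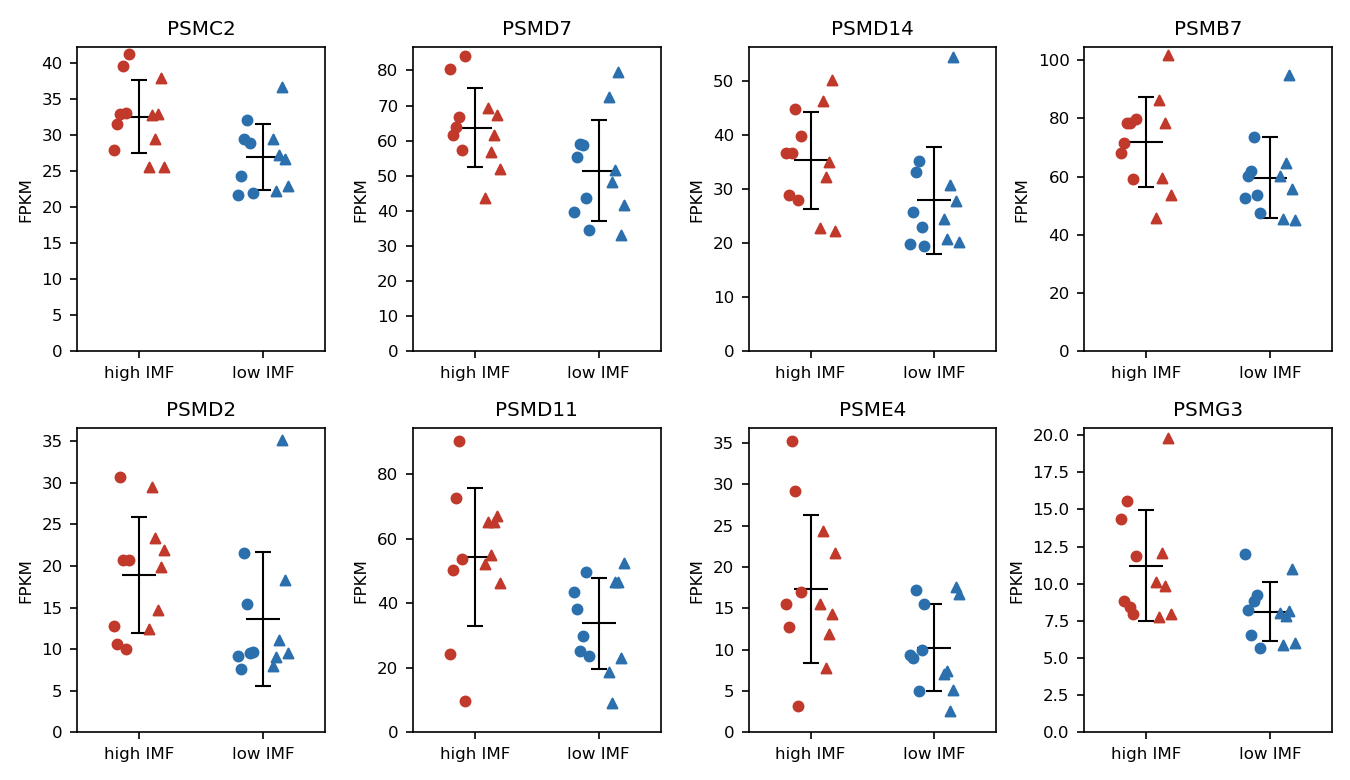
FPKM of the 8 proteasome genes with an unadjusted p under 0.05, 1 point per animal, with the group mean and SD as bars; circles and triangles are the animals of identifier sets A and B. Both groups overlap in every panel, and low IMF animal 10 is the highest low triangle for PSMC2, PSMD7, PSMD14, PSMB7 and PSMD2.

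The transcripts behind each sum differed in how steady they were. Of the 30 symbols, 11 have 1 transcript and 19 have 2 to 5. In 6 of the 19 (PSMB1, PSMC2, PSMC4, PSMC5, PSMD2 and PSMD14) the same transcript had the highest value in all 24 animals. In PSMA7 another transcript led in 15 animals, in PSMG3 in 11, and in PSMB4 and PSME4 in 10. In 5 genes (PSMC3, PSMD1, PSMD11, PSME4 and PSMG3) the leading transcript fell below 10% of the sum in at least 1 animal. How the authors' assembly divided reads between such transcripts was not tested.

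PSMC3 shows the pattern best. Its leading transcript averaged 65.3 FPKM, yet it was listed at 0 in high IMF animal 1 and in low IMF animals 2, 6 and 9. In 3 of these animals another reference transcript, which was below 6 FPKM in the other libraries, was listed at 37.1, 36.7 and 33.4 FPKM. In low IMF animal 6 neither was high, and the PSMC3 sum was 15.7 FPKM. For PSMD1, low IMF animal 2 had its leading transcript at 0 and a transcript added by the assembly at 16.4 FPKM, so the sum of 16.4 lay within the range of the other low animals. For PSMD11, low IMF animal 3 had 0.604 FPKM of the leading, added transcript and 18.2 of the reference transcript. For PSMG3 the added transcript ranged from 0 to 18.0 FPKM, and the authors' deposited table gives it a low over high fold of 0.447, against 1.2 for the reference transcript.

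**Figure D3:**
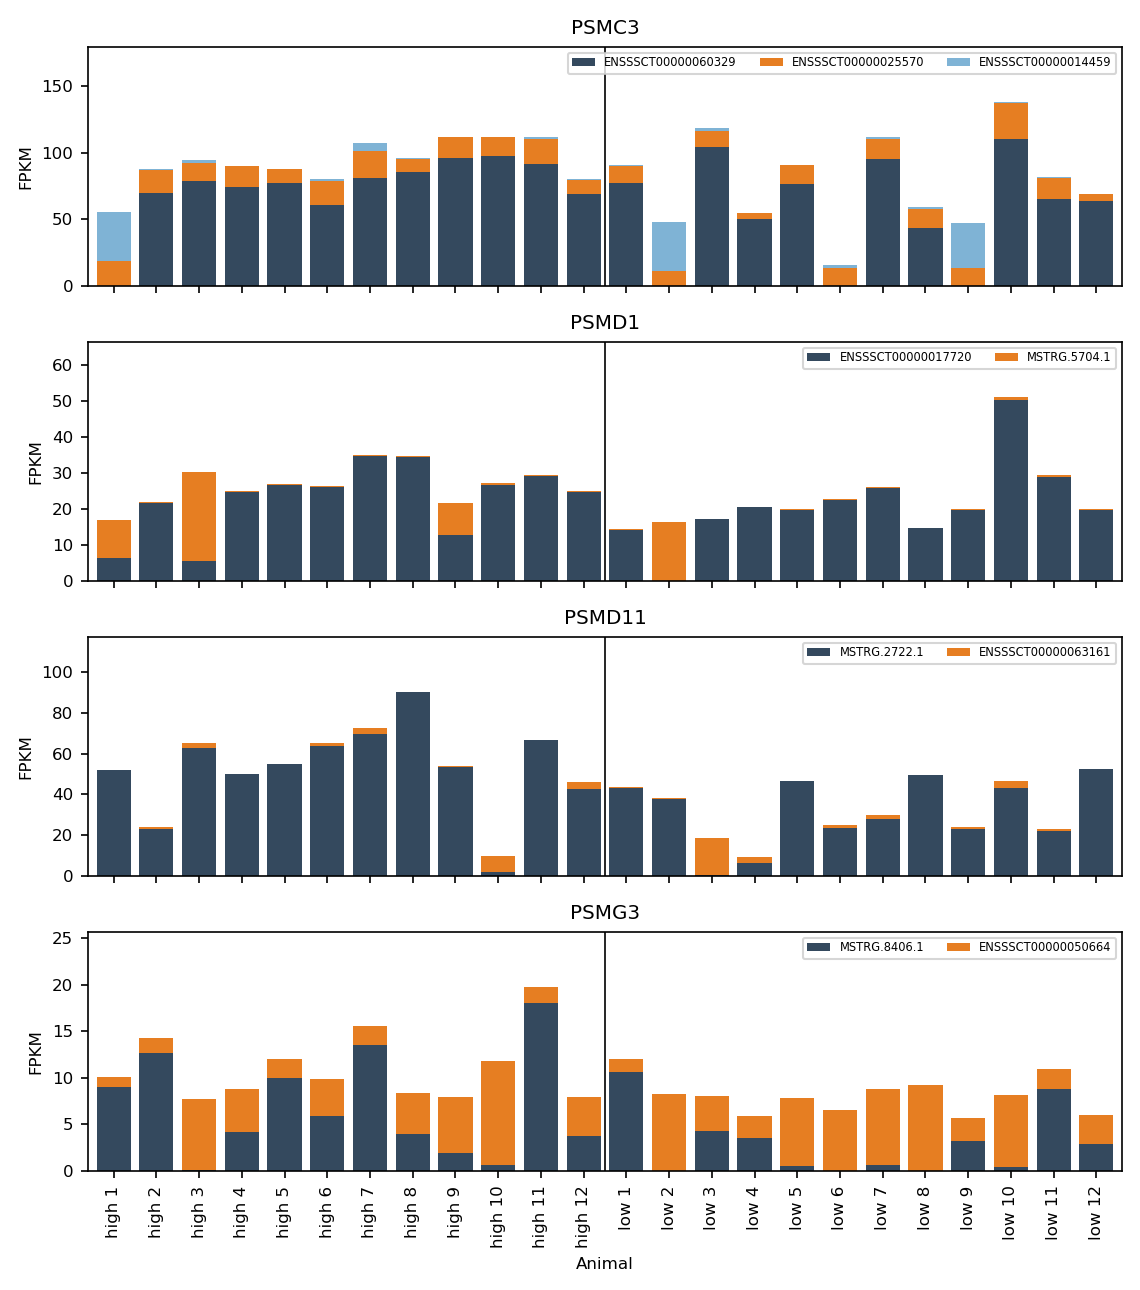
FPKM per transcript, stacked, of PSMC3, PSMD1, PSMD11 and PSMG3 in the 12 high IMF and 12 low IMF animals. The PSMC3 transcript that leads elsewhere is at 0 in high 1 and in low 2, 6 and 9, and the PSMG3 sum is carried by different transcripts in different animals.

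All 11 genes with 1 transcript had differences above 0, with a median of 0.18, and 9 of them and a median of 0.07 under TMM. Only PSMB7 among them had an unadjusted p under 0.05 (6.79% of all genes were higher at that level), a share near that of all genes. The 19 genes with more transcripts held the other 7, with a median of 0.23, and 0.12 under TMM with 15 above 0. Whether the 11 and the 19 differ was not tested. The within-group coefficient of variation had a median of 24.3% in the former and 29.2% in the latter. With each transcript as a unit, 60 were tested, 52 had a difference above 0 (66.1% of all transcripts), 9 were higher at an unadjusted p under 0.05 (5.25% of all transcripts), and 0 passed the adjusted threshold (0.0187% of all transcripts).

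The authors' deposited table gives its own p for each transcript. Of the 62, 5 had a p under 0.05 there, all higher in high IMF (3.84% of all transcripts): PSMC5, PSME4, PSMC2, PSMD7 and PSMC4, with 1 transcript each. The fold, low over high, in the authors' deposited table was 0.77 for the PSMC5 transcript (p = 0.01356) and 0.852 for the main PSMC2 transcript (p = 0.0355). Of the 62, 47 had a fold under 1 there (53.2% of all transcripts). The smallest of the 3 kinds of q-value for any of the 62 in the authors' deposited table were 0.821, 0.665 and 0.349. PSMC2, PSMD7 and PSME4 are the genes with an unadjusted p under 0.05 both as sums here and for a transcript in the authors' deposited table. Both rest on the same libraries, and the share of all genes that meet both is not given here. The transcript carried 92.0% of the sum on average for PSMC2, 12.9% for PSMD7 and 3.20% for PSME4, where it averaged 0.415 FPKM.

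Core and regulatory particle were set against each other by summing FPKM within each animal. The sums hold only genes listed by symbol. Genes matched by position further below, among them PSMD4, PSMA1 and PSMB5, and most of the PSMD2 level are not in them. The 11 core genes summed to 419 ± 76.6 FPKM in high and 368 ± 82.5 in low IMF, and the 13 genes of the regulatory particle to 652 ± 99.0 against 546 ± 130. All 30 genes together summed to 1129 ± 177 against 961 ± 209 FPKM, and 10 of 12 high animals lay above the low median. After TMM scaling the 30 summed to 1082 ± 147 against 993 ± 164. The median log2 difference was 0.17 in the core and 0.28 in the regulatory particle, and 0.05 and 0.18 under TMM. At an unadjusted p under 0.05 stood 1 of 11 core genes and 5 of 13 of the regulatory particle (6.79% of all genes), and under TMM 0 of 11 and 1 of 13 (2.77% of all genes). Whether the particles differ from each other was not tested, because the genes are not replicates.

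The ratio of core to regulatory particle was 0.641 ± 0.0486 in high and 0.677 ± 0.0501 in low IMF, and 3 of 12 high animals lay above the low median. The gap of -0.0359 is smaller than 1 SD of either group. The gap lay in identifier set A, at 0.636 ± 0.0583 against 0.708 ± 0.0389 (n = 6 each), with 0 of 6 high animals above the low median. In set B the ratios were 0.647 ± 0.0413 and 0.647 ± 0.0428. When the genes with an unsteady leading transcript were dropped (PSMC3, PSMD1 and PSMD11 of those in the ratio), the ratio was 0.876 ± 0.0643 against 0.896 ± 0.0607, and 6 of 12 high animals lay above the low median. Keeping 1 animal per shared 9 identifier digits, the gap was -0.0171. The 3 pairs that share these digits all lie in set A, where they were counted as separate animals. With the unsteady genes dropped, set A stood at 0.863 ± 0.0794 against 0.913 ± 0.0733, with 2 of 6 high animals above the low median. Set B then stood at 0.889 ± 0.0489 against 0.878 ± 0.0448.

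**Figure D4:**
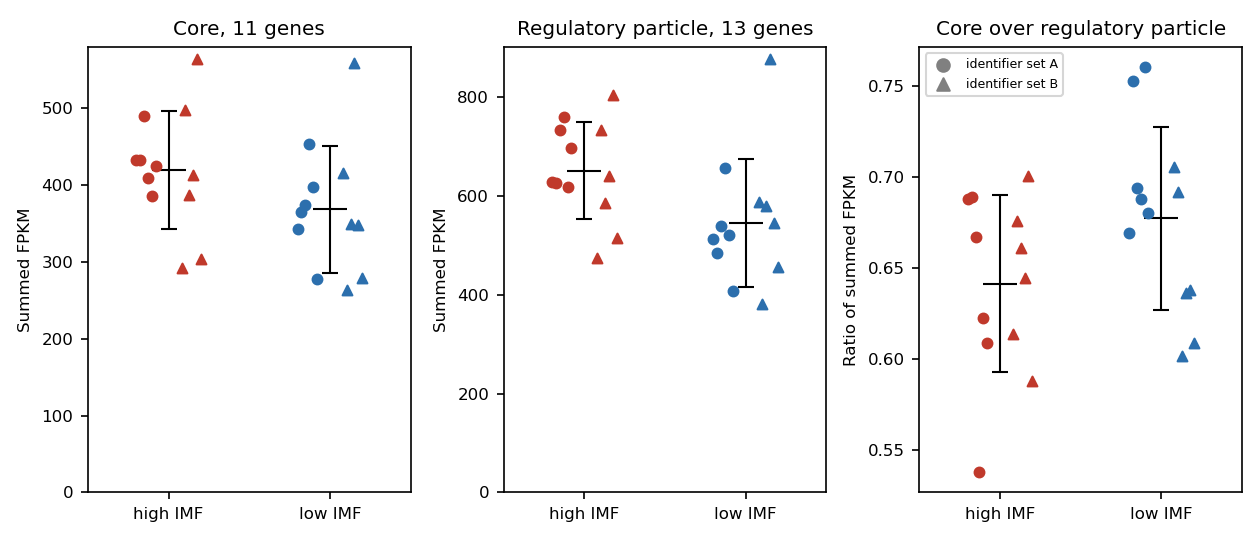
Summed FPKM of the 11 core genes and 13 genes of the regulatory particle, and the ratio of the sums, 1 point per animal with group mean and SD. The ratio axis does not start at 0. Circles (identifier set A) have means of 0.636 and 0.708 in the ratio and overlap between 0.670 and 0.689, while triangles (set B) lie at the same mean of 0.647 in both groups.

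Several animals were high or low for most of the 30 genes. Low IMF animal 10 had the highest sum of all, 1477 FPKM, and was the highest animal for 12 of the 30 genes, among them PSMD1, PSMD2, PSMD5 and PSMD12. High IMF animal 11 followed with 1428 FPKM and was highest for 5 genes, and low IMF animal 4 had the lowest sum, 685 FPKM, and was lowest for 6. Counting for each animal the genes above their own median over all 24 animals gave 18.4 ± 8.22 in high and 11.6 ± 8.21 in low IMF. High IMF animals 7 and 11 had 28 of 30 above, and low IMF animal 7 had 27. After TMM scaling the counts were 16.6 ± 6.86 in high and 13.4 ± 7.70 in low IMF. High IMF animals 7 and 11 then had 15 and 28 above, and low IMF animals 3 and 7 had 24 and 23. The scaled sum was 1096 FPKM in low IMF animal 10, 1398 in high IMF animal 11 and 743 in low IMF animal 4. The part of these whole-library shifts in the difference between groups was not tested beyond the scalings given above. With low 10 and high 7 both left out, the libraries with the smallest share in the 10 most abundant genes, the 30 summed to 1112 ± 175 against 914 ± 138 FPKM (n = 11 each), and 11 of 30 genes had an unadjusted p under 0.05 (11.4% of all genes).

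**Figure D5:**
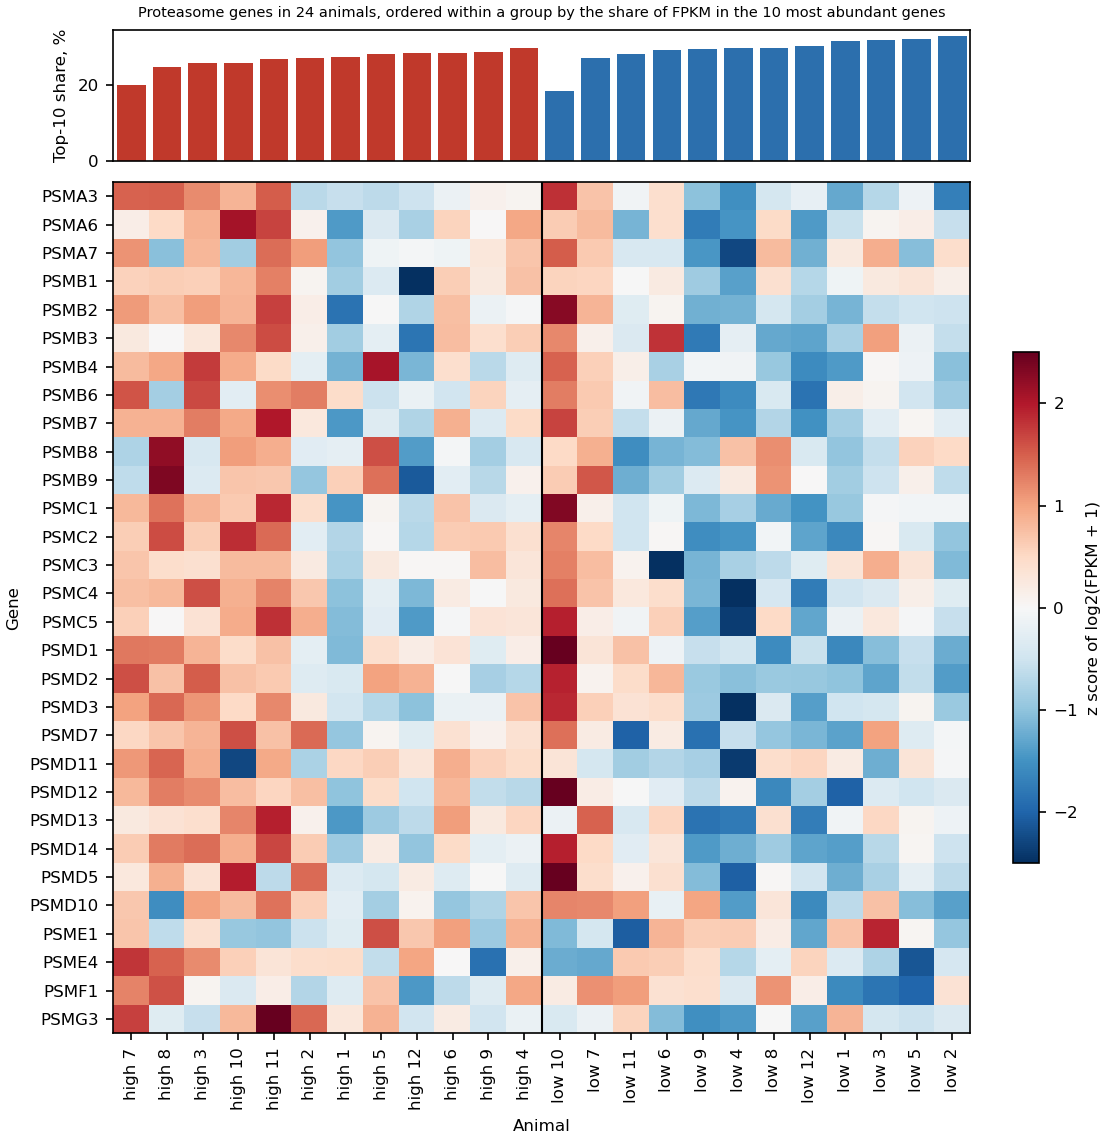
Z scores of log2(FPKM + 1) over the 24 animals for the 30 genes, with animals ordered within each group by the share of FPKM in the 10 most abundant genes (upper bars, %). Red columns mark animals with most genes high, such as high 11 and low 10, and blue columns animals with most genes low, such as low 4 and low 12.

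In set A the 30 genes summed to 1166 ± 97.7 FPKM in high and 938 ± 136 in low IMF (n = 6 each), and in set B to 1092 ± 237 against 984 ± 276. Fitted alone, set A gave 29 of 30 differences above 0 (77.2% of all genes) and 9 genes higher at an unadjusted p under 0.05 (8.14% of all genes). That fit counted the pairs sharing 9 identifier digits, all in set A, as separate animals. Set B gave 26 of 30 above 0 (56.2% of all genes) and 2 genes at that level (2.27% of all genes). PSMD2 had 0.47 in set A and 0.54 in set B, PSME4 had 0.53 and 0.84, and PSMG3 had 0.36 and 0.43. The others of the 8 were less alike: PSMD11 had 0.26 in set A and 1.03 in set B, PSMD7 0.51 and 0.15, PSMC2 0.37 and 0.16, PSMD14 0.46 and 0.24, and PSMB7 0.32 and 0.21. None of the 8 had an unadjusted p under 0.05 in the interaction of group and set. PSMC3 had 0.91 in set A and -0.08 in set B. The test of that difference (interaction of group and set, limma) gave p = 0.034 and an adjusted p of 0.998. PSMC3 was the only one of the 30 with an unadjusted p under 0.05 there (3.29% of all genes). Its leading transcript was listed at 0 in low IMF animals 2, 6 and 9, all in set A, and in high IMF animal 1, in set B. The part of these values in the PSMC3 difference between sets was not tested.

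Some of the 20 unlisted symbols are present in the table without their name. A match by position to the gene spans of RefSeq (Sscrofa11.1), a rule added after the table was seen and blind to strand, assigned 18 transcripts to 12 further genes and to PSMD2. PSMG1, the partner of PSMG2 in assembly of the alpha ring and listed in the table under BRWD1, was at 29.2 ± 5.30 FPKM in high and 23.7 ± 5.13 in low IMF, a log2 difference of 0.29 (p = 0.014, adjusted p = 0.537), and 0.18 under TMM. PSMA1, an alpha subunit, was at 33.8 ± 8.83 against 26.6 ± 8.41 FPKM, a log2 difference of 0.34 (p = 0.034, adjusted p = 0.620). PSMB5, the chymotrypsin-like catalytic subunit and listed under C14orf93, was at 31.0 ± 6.84 against 25.8 ± 5.72 FPKM, with a difference of 0.26. PSMD4, the ubiquitin receptor of the base, was the most abundant of all at 113 ± 23.4 against 94.1 ± 24.9 FPKM, with a difference of 0.28.

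PSMB10, the interferon-inducible counterpart of PSMB7, was at 2.83 ± 0.797 against 2.24 ± 0.962 FPKM. PSME2, the partner of PSME1, was at 7.31 ± 1.11 against 7.03 ± 1.48 FPKM, a difference of 0.06, and -0.04 under TMM. PSMG4 had 0.02, and -0.09 under TMM. With its transcripts joined, PSMD2 was at 53.8 ± 16.5 against 39.1 ± 20.7 FPKM, a difference of 0.53 (p = 0.019, adjusted p = 0.559), so its level was far higher than by symbol alone while its difference hardly moved. With the 12 added, all 42 differences were above 0 (73.4% of all genes), with a median of 0.21, 12 were at an unadjusted p under 0.05 (6.79% of all genes), and 0 passed (0.051% of all genes). Under TMM 34 of 42 were above 0 (49.7% of all genes), and PSMD2 alone had an unadjusted p under 0.05 (2.77% of all genes).

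The position match also gave the catalytic pairs that lacked a partner. PSMB8 made up 15.0 ± 5.56% of PSMB8 and PSMB5 in high and 16.5 ± 6.14% in low animals, and PSMB10 3.95 ± 1.35% against 3.58 ± 1.13% of PSMB10 and PSMB7. All 3 shares of inducible subunits thus lay within 1 SD of each other between groups.

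Genes that work beside the proteasome were taken from 5 lists with 53 symbols, 41 of which were tested. Of the 41, 37 had a difference above 0 (73.4% of all genes), with a median of 0.11. At an unadjusted p under 0.05, 3 were higher (6.79% of all genes), a share near that of all genes, 0 were lower (0.893%), and 0 passed the adjusted threshold (0.051%). Under TMM 22 of 41 were above 0 (49.7% of all genes), with a median of 0.00, and 0 had an unadjusted p under 0.05 and a higher level. The 3 were TXNL1, a thioredoxin-like protein bound to the regulatory particle, UFD1, a cofactor of the unfoldase VCP, and NGLY1, the deglycosylase that acts on NFE2L1. TXNL1 was at 44.9 ± 6.21 against 37.9 ± 7.06 FPKM (adjusted p = 0.558), UFD1 at 5.204 ± 1.64 against 3.87 ± 1.82 (adjusted p = 0.644), and NGLY1 at 9.39 ± 2.67 against 7.14 ± 1.88 (adjusted p = 0.610).

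NFE2L1, the transcription factor known for raising proteasome genes when proteasome activity is short, was at 55.1 ± 15.4 FPKM in high and 45.1 ± 18.2 in low IMF, a log2 difference of 0.31 (adjusted p = 0.676), and 0.20 under TMM. VCP, the ATPase that extracts ubiquitin-tagged proteins, was at 124 ± 17.4 against 109 ± 26.0 FPKM. UBB, a polyubiquitin gene, was at 948 ± 208 against 831 ± 145 FPKM. TAP1, the peptide transporter of antigen presentation, was at 9.31 ± 3.24 against 8.02 ± 1.79 FPKM. Each overlapped between groups and none passed.

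Markers of other cell types were summed in the same libraries. The adipocyte list (8 of 8 listed) summed to 115 ± 40.1 FPKM in high, from 65.7 to 207, and to 62.1 ± 31.0 in low IMF, from 32.2 to 149. Of these 8, 7 were higher in high IMF at an unadjusted p under 0.05 (6.79% of all genes) and 1, LEP (leptin), passed the adjusted threshold (0.051% of all genes). ADIPOQ, the adipocyte hormone adiponectin, was at 27.1 ± 11.98 against 10.3 ± 5.72 FPKM. PLIN1, the remaining marker of the 8, had a log2 difference below 0, at -0.09, and -0.15 under TMM. Macrophage markers (7 of 9 listed, without CD68 and AIF1) summed to 21.9 ± 7.16 against 18.2 ± 7.88 FPKM, from 10.2 to 35.1 and from 5.28 to 34.7. Endothelial markers (6 of 6 listed) summed to 44.5 ± 10.985 against 38.3 ± 9.75 FPKM, from 27.3 to 61.2 and from 17.5 to 54.7. Lymphocyte markers (3 of 8 listed) summed to 2.10 ± 1.72 against 1.71 ± 0.923 FPKM, from 0.568 to 6.06 and from 0.732 to 3.89. The part of these cells in the levels of the 30 proteasome genes was not tested.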

How the data were processed

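RNA sequencing of back muscle from 24 pigs, 12 with high and 12 with low IMF, was used as 1 table that the authors deposited. Its FPKM values, 1 per assembled transcript and animal, its fold changes (a ratio, low over high IMF), p-values and 3 kinds of q-value are the authors', per the file headers, the FPKM unit being read from the values themselves. Sscrofa11.1, HISAT2 2.0.5 and StringTie 1.3.3 stand in the submitters' processing notes, without roles. The release of the annotation is not stated. The deposited fold, p-values and q-values were only quoted. Coordinates are those of the table.

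FPKM was summed per symbol and chromosome, or per locus without a symbol. High was compared with low IMF on the scale of log2(FPKM + 1). The test was limma 3.58.1 (R 4.3.3) with a trend of variance on mean and with robust moderation. It covered the 11757 genes that averaged 0.5 FPKM or more, with Benjamini-Hochberg adjustment at 0.05. The pseudocount understates the change of low genes. Sums, shares and ratios were computed in Python 3.11.15 with numpy 2.4.6 and pandas 2.3.3 and got no test. The fit was tested on simulated data. Depth is known only by inference from value steps, so no count model was used.

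The members and lists were chosen with earlier results of these data known. Every gene of the prefixes is accounted for; full statistics are given for the 10 of smallest p, values for genes fixed with the lists, and up to 4 genes per pathway list by smallest p. Further genes were picked with their values in view. The alternatives tried were TMM and upper-quartile scaling, no filter and a mean of at least 5 FPKM, a pseudocount of 0.1, no robust moderation, array weights, identifier digits as a term, 1 animal per shared 9 digits (21 animals) and leaving out each animal. Chosen after seeing the data were fits of single transcripts, reference transcripts alone, the match by position (at least 50% of each span covered), each identifier set alone with its interaction, and leaving out 2 animals together.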

Additional observations from a re-analysis of the deposited data

How the results depend on the processing

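No member passed the adjusted threshold under any alternative run. Of 390 alternative values of the 10 members with full statistics, 388 kept their sign, and with reference transcripts alone PSMG3 was at -0.27 and PSMD11 at -0.0905; the cause was not tested. The 8 members at an unadjusted p under 0.05 became 1 under TMM, upper-quartile scaling or TMM with position-matched genes, 3 with 1 animal per shared 9 digits, 2 in identifier set B alone, and 3 to 15 leaving out 1 animal. With transcripts as units, 52 were positive. The 3 higher pathway genes (6.79% of all genes) became 0 under TMM (2.77%), upper-quartile scaling (2.51%) or TMM with position-matched genes (2.77%). They were 5 without low 10 and high 7 (11.4% of all genes) and 1 in identifier set B alone (2.27%). Leaving out 1 animal gave 1 to 7, with 1 without high IMF animal 7 (5.26% of all genes) and 7 without low IMF animal 10 (14.1%). With array weights they were 6, and with transcripts as units 2 were lower at that level. The share of all genes is not given here for these last counts. By the median FPKM over subunits in place of sums, the core to regulatory ratio differed by -0.162; leaving out 1 animal, its gap by sums was -0.0427 to -0.0265. No paired analysis was possible because the labels number no animals across groups. The promoter motifs planned were not searched, since no promoter table was used here. Depth is inferred only, so no interval from counts is given.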
